A study of Mus musculus with 16 samples.

Results

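Type I interferon-stimulated genes were followed as a list of 45 named genes, chosen by name as canonical targets of type I interferon. Of these, 43 were among the 32285 genes of the count matrices, and Mx1 and Mx2 are not analysed here. Their transcripts were counted in single cells of subcutaneous B16 melanomas (the Bro4.1 line) of C57BL/6J mice, which received 1000000 tumour cells. The tumour cells were either controls or B2m-null, lacking the light chain that MHC class I needs to reach the cell surface. Each mouse had 3 intraperitoneal doses, on days 6, 9 and 12, of 100 µg of either an agonistic anti-CD40 or a rat IgG2a isotype antibody. Tumours were taken on day 14, and CD45+ cells were enriched with magnetic beads. The 4 groups were control tumours under isotype (5 mice), control tumours under anti-CD40 (2 mice), B2m-null tumours under isotype (4 mice) and B2m-null tumours under anti-CD40 (4 mice). The labels attach the genotype to the mouse; the design text attaches it to the tumour cells and was the one used. How many clones each tumour line stands for is not given in the sources used here.

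Type I interferons, the interferon alphas and interferon beta, bind the receptor made of Ifnar1 and Ifnar2 on almost every cell. The receptor's kinases activate transcription factors, among them Stat2, which joins Irf9 in a complex that binds interferon-stimulated response elements in the promoters of a large set of antiviral genes. In tumours this response is known from macrophages, monocytes and dendritic cells, and CD40 is an activating receptor of the same antigen-presenting cells. Part of the same genes also answer to interferon gamma, whose own targets include Irf1.

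The list falls into functional groups. The Ifit genes encode proteins that hold back translation of foreign RNA. Isg15 is a ubiquitin-like modifier, Usp18 removes it, and Herc6, Dtx3l and Trim30a belong to the ubiquitin ligase families. The Oas genes encode synthetases of the 2-5A messenger that activates RNase L. Rsad2 (viperin) and Cmpk2 act on nucleotides and Isg20 is a nuclease. Ifih1, Ddx58, Dhx58, Ddx60, Zbp1, Ifi204 and Ifi209 encode sensors of nucleic acids or relatives of them. Irf7, Irf9 and Stat2 are transcription factors of the pathway, Parp9 and Parp14 are ADP-ribosylation enzymes, and the Schlafens, Slfn1, Slfn4, Slfn5 and Slfn8, restrict growth or viral replication. The last 8 members, Bst2, Ifi27l2a, Rtp4, Xaf1, Ifi44, Ifi35, Phf11b and Phf11d, share no single function and were counted together. Many members are neighbours in the genome (GRCm38.p6, RefSeq). Ifit2, Ifit3, Ifit1bl1, Ifit3b and Ifit1 lie within 99.3 kb of chromosome 19, and Slfn5, Slfn8, Slfn1 and Slfn4 within 239 kb of chromosome 11. Ifit3 and Ifit3b, Oas1a and Oas1g, and Phf11b and Phf11d are close copies, and the Schlafens are relatives. How reads were assigned among such genes is uncertain.

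Part of the members' promoters hold the interferon-stimulated response element. RefSeq promoters (GRCm38.p6, 250 bases before to 50 bases after the start site) were matched for 34 of the 43 members. The core of the interferon-stimulated response element, searched as GAAA, any 2 bases and GAAA again, on either strand, was in 18 of the 34 (52.9%), against 3.99% of 27025 genes. The gamma-activated site, TTCNNNGAA, was in 5 of the 34 (14.7%), against 9.55% of the same genes. The 2 motifs can overlap in the genome and were counted separately. Isg15, Ifit3 and Rsad2 are shown as members that carry the element and whose values are given in full further on. Ifit2, Irf7 and Slfn4, whose values the comparisons use as well, had no match to it in their windows, which says only that these letters are not there. The 250 bases before the start sites of the first 3 are printed 5′ to 3′ on the strand of the gene, with the matches in capitals. Isg15 (chr4:156200819-156201068, minus strand) has 3 overlapping matches, Ifit3 (chr19:34583279-34583528, plus strand) has 2 and Rsad2 (chr12:26456453-26456702, minus strand) has 1.
Isg15: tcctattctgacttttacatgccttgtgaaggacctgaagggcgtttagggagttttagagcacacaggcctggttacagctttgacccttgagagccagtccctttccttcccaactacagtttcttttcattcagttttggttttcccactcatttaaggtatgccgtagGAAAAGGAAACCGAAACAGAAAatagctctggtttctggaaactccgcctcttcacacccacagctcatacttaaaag
Ifit3: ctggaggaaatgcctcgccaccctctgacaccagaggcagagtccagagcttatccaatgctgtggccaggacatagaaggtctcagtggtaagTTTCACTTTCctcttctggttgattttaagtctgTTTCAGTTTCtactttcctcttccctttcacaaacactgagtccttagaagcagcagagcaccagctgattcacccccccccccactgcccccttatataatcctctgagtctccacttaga
Rsad2: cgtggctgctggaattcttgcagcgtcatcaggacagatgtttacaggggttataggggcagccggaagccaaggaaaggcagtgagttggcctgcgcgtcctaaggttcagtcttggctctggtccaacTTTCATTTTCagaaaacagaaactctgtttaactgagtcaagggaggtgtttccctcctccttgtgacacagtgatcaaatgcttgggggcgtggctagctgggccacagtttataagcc
The matches begin 78, 72 and 66 bases before the start of Isg15, 156 and 122 bases before that of Ifit3, and 120 bases before that of Rsad2. A match describes these letters, and binding was not measured.

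The 8 lanes held 45985739 to 99264875 UMIs (unique molecular identifiers, 1 per captured RNA molecule) and 116552 cell barcodes. Of these, 11467 (9.84%) were hashtag doublets and were removed, and 71776 cells passed the filters and were assigned to a mouse. Lanes shared at most 0.623% of their barcodes with another lane. Cell classes came from marker genes that exclude the list. B2m in melanoma-marked cells stood at 1413 and 2172 counts per 1000000 UMIs (CPM) in control tumours under isotype and anti-CD40, and at 377 and 547 CPM in B2m-null tumours, lower in both B2m-null groups than in both control groups. The same melanoma cells had 44.9 to 52.2 CPM of Ptprc, the gene of CD45. The mouse was the unit of every test, where replicate lanes 1 and 2 of a group hold its pools 1 and 2. Each lane held mice of 1 group only, so group cannot be told apart from lane and pool. The control anti-CD40 group has 2 mice from 1 pool run on 2 lanes, so each result that uses it rests on 2 animals. Spread between pools was not measured in that group. Counts given further on with the lane as the unit treat these 2 runs of the same mice as 2 replicates. The comparison of antibodies in control tumours shares its control isotype mice with the comparison of genotypes under isotype.

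Classes were compared within control tumours under isotype, since the groups make up different parts of each class. Summed over the list, the members took the largest part of the RNA in monocytes, with 97.8 ± 12.9 UMIs per 10000 (SD, n = 5), and all 5 mice, at 80.5 to 110, lay above the mice of every other class with enough cells in this group. Neutrophils followed at 70.9 ± 7.9 (n = 2), plasmacytoid dendritic cells at 62.0 ± 12.3 (n = 4), the conventional dendritic cells cDC2 at 59.3 ± 9.0 (n = 5), macrophages at 55.4 ± 9.3 (n = 5) and fibroblasts at 51.0 ± 13.3 (n = 4). The ranges of these 5 classes overlap between neighbours. Averaged over cells, monocytes, at 81.6 to 111, and neutrophils, at 76.5 to 91.6, overlapped. With cells thinned to 1000 UMIs, monocytes, at 80.5 to 114, stayed above all other classes. Neutrophils, at 51.25 from 18 such cells, then stood below macrophages at 63.9, plasmacytoid dendritic cells at 61.3 and cDC2 at 58.1. CD4 T cells stood at 41.3 (n = 4), regulatory T cells at 40.1 (n = 4), mature dendritic cells at 38.3 (n = 5) and cDC1 at 32.4 (n = 5). B cells at 20.2 (n = 2), CD8 T cells at 19.3, melanoma cells at 19.0 and NK cells at 18.2 (n = 5 each) were lowest and overlapped each other. In these mice 21 of the 43 members had their highest median in monocytes, 11 in neutrophils, 4 in plasmacytoid dendritic cells and 4 in fibroblasts. The neutrophil medians rest on 85 cells with 80688 UMIs, beside 5170464 UMIs in monocytes. A few abundant members made up part of each sum, to a degree that differed by class. Ifi27l2a, a small interferon-induced membrane protein, made up 17.9% of the summed counts of these mice in monocytes and 20.3% in macrophages. Bst2 (tetherin), which holds budding virus at the membrane and is a surface marker of plasmacytoid dendritic cells, made up 47.1% in that class.

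In monocytes of control tumours under isotype the summed list took 102, 108, 88.1, 80.5 and 110 UMIs per 10000 in the 5 mice, and under anti-CD40 it took 49.1 and 43.9 in the 2 mice. In B2m-null tumours it took 68.4, 68.0, 68.0 and 54.5 under isotype and 74.4, 72.3, 65.6 and 66.8 under anti-CD40. Both control anti-CD40 mice lay below all other mice, and all control isotype mice lay above all other mice. The group means were 97.8 ± 12.9 (SD, n = 5), 46.5 ± 3.7 (n = 2), 64.7 ± 6.8 (n = 4) and 69.8 ± 4.2 (n = 4) in that order. In macrophages the means were 55.4 ± 9.3, 35.0 ± 5.1, 48.1 ± 11.2 and 45.6 ± 5.5, and the 2 control anti-CD40 mice, at 31.4 and 38.7, lay below the control isotype mice, which ran from 43.2 to 66.0. The B2m-null mice, at 36.1 to 62.8 under isotype and 40.7 to 52.6 under anti-CD40, overlapped the control isotype mice. In CD8 T cells the means were 19.3 ± 5.5, 20.4 ± 3.5, 16.7 ± 1.7 and 22.4 ± 2.0. The control groups overlapped there, while the B2m-null mice ran from 15.3 to 18.5 under isotype and from 20.3 to 24.8 under anti-CD40. The B2m-null groups overlapped when the sums were averaged over cells (17.3 to 25.7 against 23.5 to 25.6), when cells were thinned to 1000 UMIs (17.5 to 24.6 against 22.4 to 25.7) and without the 3 most abundant members (9.75 to 11.9 against 10.7 to 14.3). No test was made of these sums, since the list was chosen with results of these data known.

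The sum could come from a few cells or from most of them. Each cell was therefore thinned to 1000 UMIs, leaving out shallower cells, and cells with at least 10 member UMIs were counted. In monocytes they made up 41.7% ± 7.0 (SD, n = 5) of cells in control tumours under isotype and 11.7% ± 0.62 (n = 2) under anti-CD40. In B2m-null tumours they made up 23.5% ± 7.6 (n = 4) and 24.8% ± 3.1 (n = 4). In macrophages they made up 21.5% ± 5.2, 5.04% ± 1.73, 16.8% ± 7.2 and 12.0% ± 2.4 in the same order. The thinned cells numbered 1862 of 2066, 324 of 419, 1120 of 1233 and 950 of 998 monocytes. Thinned sums kept the same order of groups, at 102 ± 14.8, 47.8 ± 0.82, 66.7 ± 8.0 and 73.3 ± 5.0 per 10000 in monocytes.

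Anti-CD40 in control tumours was accompanied by lower levels of most of the list in monocytes. Of the 43 members, all of which were tested, 32 fell and 0 rose (edgeR quasi-likelihood test, Benjamini-Hochberg adjusted p under 0.05), against 4.79% of all genes tested called, 2.12% lower and 2.68% higher. The median log2 change of the members was -1.33, and that of all genes tested was 0.00. In 37 of 43 members both control anti-CD40 mice lay below all 5 control isotype mice, as in 13.2% of all genes tested, and in 0 they lay above, as in 14.1%. Without control anti-CD40 mouse 2 the call count was 16, and leaving out any other mouse or lane gave 24 to 34. Monocytes of the 2 groups also differed in median depth, with 1699 UMIs per cell under anti-CD40 and 2177 under isotype. Neutrophil markers summed to 911 and 2013 CPM in the monocytes of the anti-CD40 mice and to 43.3 to 323 CPM in those of the isotype mice (4 and 2 to 5 of 6 markers detected). Of the defining neutrophil markers, Retnlg was at 0 in both groups and Cxcr2 in the anti-CD40 mice. T cell markers summed to 71.0 and 95.3 CPM under anti-CD40, against 19.0 to 36.1 CPM under isotype, with 5 and 4 to 5 of 5 markers detected. After monocytes with T cell transcripts were removed, an alternative chosen after the data were seen, 28 members were called. The part of neutrophil markers in the result was not tested.

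Ifit3 had the largest fall among members with counts in both groups. It stood at 111, 119, 94.4, 79.2 and 137 CPM in monocytes of the 5 control isotype mice and at 10.9 and 4.06 CPM in those of the 2 control anti-CD40 mice. It stood at 41.9, 58.7, 48.0 and 37.5 CPM in B2m-null tumours under isotype and at 39.4, 38.6, 46.3 and 59.0 CPM under anti-CD40. The control groups do not overlap, and the 2 B2m-null groups do. In control tumours Ifit3 fell by 3.93 ± 0.41 (SE) on the log2 scale (edgeR adjusted p = 6.8e-08). Ifit2 fell by 3.25 ± 0.25 and Ifit1 by 2.75 ± 0.27. Ifit3b, the near copy of Ifit3, had 53 UMIs in control isotype monocytes and 0 in control anti-CD40 monocytes, so it was at least 2.94-fold lower, taking 3 counts over the whole group as the floor. Of the 5 Ifit genes 4 fell, and Ifit1bl1 did not pass the test.

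Rsad2 showed the next largest change. It stood at 488, 286, 392, 340.3 and 386 CPM in the control isotype mice and at 51.8 and 22.3 CPM in the control anti-CD40 mice. In B2m-null tumours it stood at 194, 224, 202 and 206 CPM under isotype and at 98.5, 160, 235 and 184 CPM under anti-CD40. Only the control groups stood apart from each other under the change of antibody. Rsad2 fell by 3.41 ± 0.39 in control tumours (edgeR adjusted p = 3.8e-05). All 3 nucleotide and RNA-directed effectors fell, Isg20 among them by 3.04 ± 0.74 (edgeR adjusted p = 0.028).

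Isg15 and the transcription factor Irf7, which carries the response forward by driving interferon alpha genes, moved in both tumours. In monocytes Isg15 stood at 693, 771, 646, 526 and 756 CPM in control tumours under isotype and at 234 and 142 CPM under anti-CD40. B2m-null tumours gave 225, 338, 315 and 233 CPM under isotype and 500.4, 519, 476 and 459 CPM under anti-CD40. No pair of antibody groups overlapped, and the direction was down in control and up in B2m-null tumours. Isg15 fell by 1.87 ± 0.20 in control tumours (edgeR adjusted p = 1.4e-07) and rose by 0.95 ± 0.15 in B2m-null tumours (edgeR adjusted p = 4.2e-05).

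Irf7 followed the same order. Its monocyte levels were 284, 340, 235, 262 and 405 CPM in control isotype mice and 92.6 and 75.0 CPM in control anti-CD40 mice. They were 178, 137, 168 and 126 CPM in B2m-null isotype mice and 297, 226, 156 and 183 CPM in B2m-null anti-CD40 mice. The control groups did not overlap, while 1 B2m-null anti-CD40 mouse, at 156 CPM, lay within the isotype range. Irf7 fell by 1.88 ± 0.26 in control tumours (edgeR adjusted p = 4.3e-05) and rose by 0.64 ± 0.18 in B2m-null tumours (edgeR adjusted p = 0.016). Stat2 was also among the members that fell in control tumours, while Irf9 had a log2 change of 0.01 ± 0.21 and was not called. Irf9, like Oas2 at -0.46 ± 0.31, was picked out after its values were seen.

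The Schlafens Slfn4 and Slfn5 fell under anti-CD40 in both tumours. Slfn4, a myeloid Schlafen, stood at 161, 154, 148, 160.4 and 205 CPM in monocytes of control isotype mice and at 27.2 and 12.2 CPM in those of control anti-CD40 mice. Levels in B2m-null tumours were 115, 95.1, 70.9 and 68.5 CPM under isotype and 65.0, 34.8, 53.2 and 48.6 CPM under anti-CD40. All isotype mice lay above the anti-CD40 mice of the same tumour. Slfn4 fell by 3.14 ± 0.31 in control (edgeR adjusted p = 2.1e-08) and by 0.55 ± 0.19 in B2m-null tumours (edgeR adjusted p = 0.038). Slfn5 stood at 753, 767, 564, 487 and 669 CPM in control isotype and 223 and 154 CPM in control anti-CD40 monocytes. In B2m-null tumours it stood at 467, 562, 433 and 352 CPM under isotype and 290, 241, 262 and 222 CPM under anti-CD40. It fell by 1.79 ± 0.20 and by 0.67 ± 0.15, and neither pair of groups overlapped. All 4 Schlafens fell in control tumours.

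**Figure D1:**
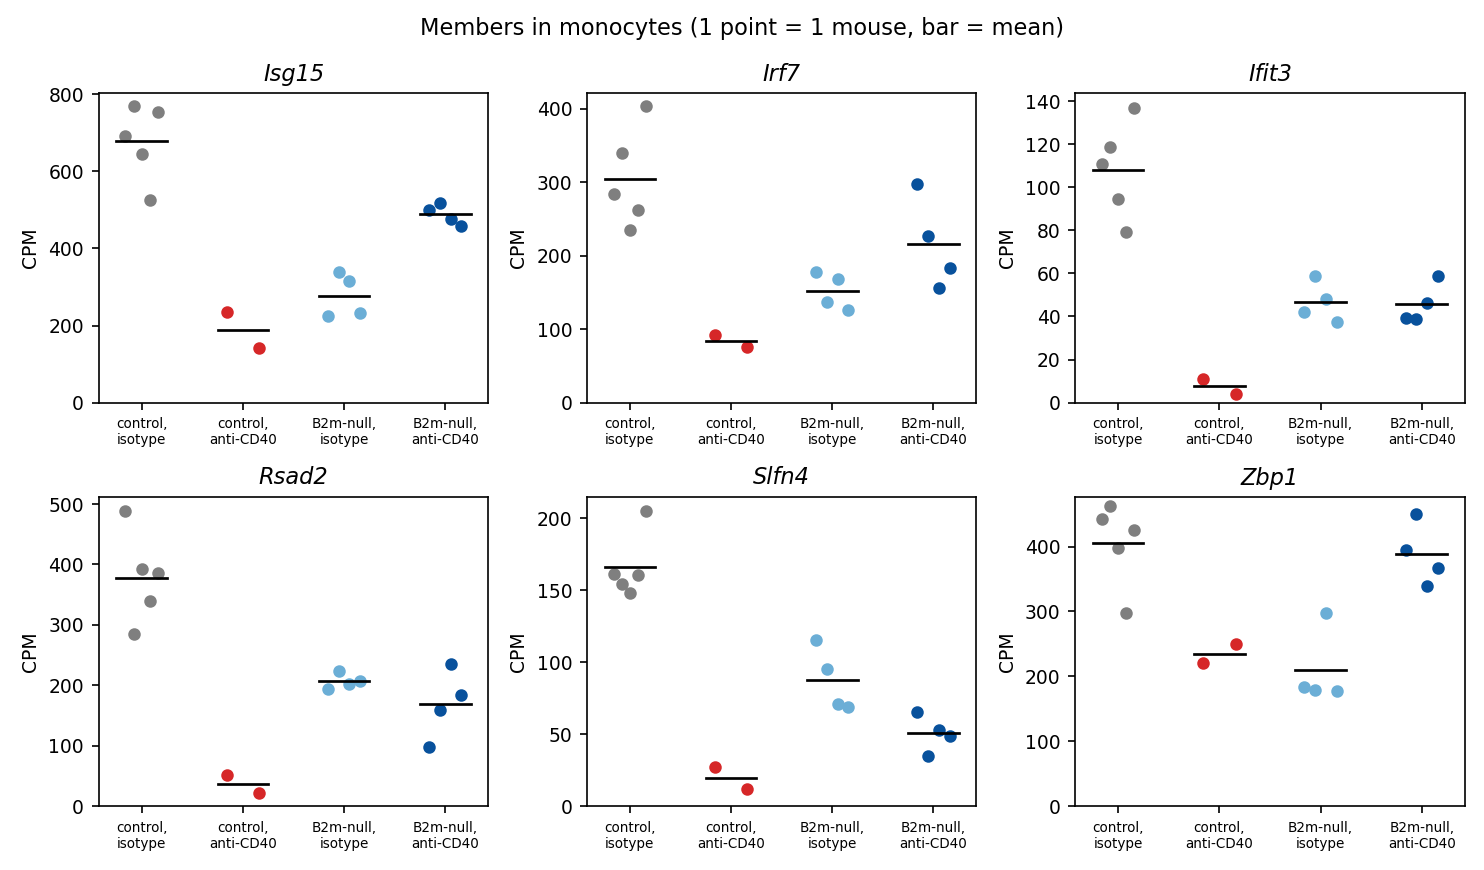
Level of 6 members in monocytes of each mouse (CPM), by group, with the group mean. Isg15 stands at 142 and 234 CPM in the control anti-CD40 mice and at 459 to 519 CPM in the B2m-null anti-CD40 mice, whereas Slfn4 is lower under anti-CD40 in both tumours.

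Members of the other groups of the list fell as well. Of the 5 ubiquitin-related members 4 fell, Isg15 among them, of the 6 Oas-related members 3, of the 7 sensors 5, of the 2 ADP-ribosylation enzymes 1 and of the 8 members in no other group 6. Phf11d, a protein with a zinc-binding PHD domain, fell by 2.34 ± 0.37. Zbp1, a sensor of Z-form nucleic acids that can start necroptosis, fell by 0.79 ± 0.20 (edgeR adjusted p = 0.022). Ifi27l2a, the most abundant member, had a log2 change of -0.10 ± 0.15 and was not called.

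In B2m-null tumours fewer members were called under anti-CD40, and most of those called rose. In monocytes 10 members rose and 2 fell, against 18.9% of all genes tested called, 10.3% higher and 8.65% lower, with a median of 0.29 beside -0.02 for all genes. In 5 of 43 members all anti-CD40 mice lay above all isotype mice and in 6 all lay below, as in 6.71% and 14.7% of all genes tested. Without its 3 most abundant members the summed list took 39.9 UMIs per 10000 under isotype and 39.5 under anti-CD40. Ifi44, a cytoplasmic interferon-induced protein, rose by 1.77 ± 0.36 on the log2 scale and Oas1g by 1.46 ± 0.41. Ifi35 and Xaf1 rose by 0.71 ± 0.18 and 0.65 ± 0.18. Zbp1 levels in monocytes were 183, 179, 297 and 177 CPM under isotype and 394, 451, 339.6 and 367 CPM under anti-CD40, without overlap. Zbp1 rose by 0.98 ± 0.16 (edgeR adjusted p = 0.00014). Slfn4 and Slfn5 are the 2 members that fell. Without B2m-null anti-CD40 lane 1 the count of calls was 7. Monocytes of B2m-null anti-CD40 mice held 683 to 1076 CPM of macrophage markers and those of the isotype mice 1980 to 2908 CPM, and neutrophil markers stood at 112 to 2333 and 105 to 447 CPM. Their part in the result was not tested.

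The difference between the 2 antibody effects was tested directly. It is the log2 change under anti-CD40 in B2m-null tumours minus that in control tumours. In monocytes 33 members had a higher value and 0 a lower one, against 8.75% of all genes tested called, 5.13% higher and 3.61% lower, with a median of 1.58 beside -0.02. The difference was 4.08 ± 0.48 for Ifit3, 3.31 ± 0.45 for Rsad2 and 3.23 ± 0.31 for Ifit1. It was 2.92 ± 0.44 for Phf11d, 2.88 ± 0.30 for Ifit2 and 2.83 ± 0.24 for Isg15 (edgeR adjusted p = 9.6e-09). All 8 members in no other group and all 4 Schlafens were called, so the falls of Slfn4 and Slfn5 were smaller in B2m-null tumours. Without control anti-CD40 mouse 2 the count was 15, and with the lane as the unit it was 21.

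**Figure D2:**
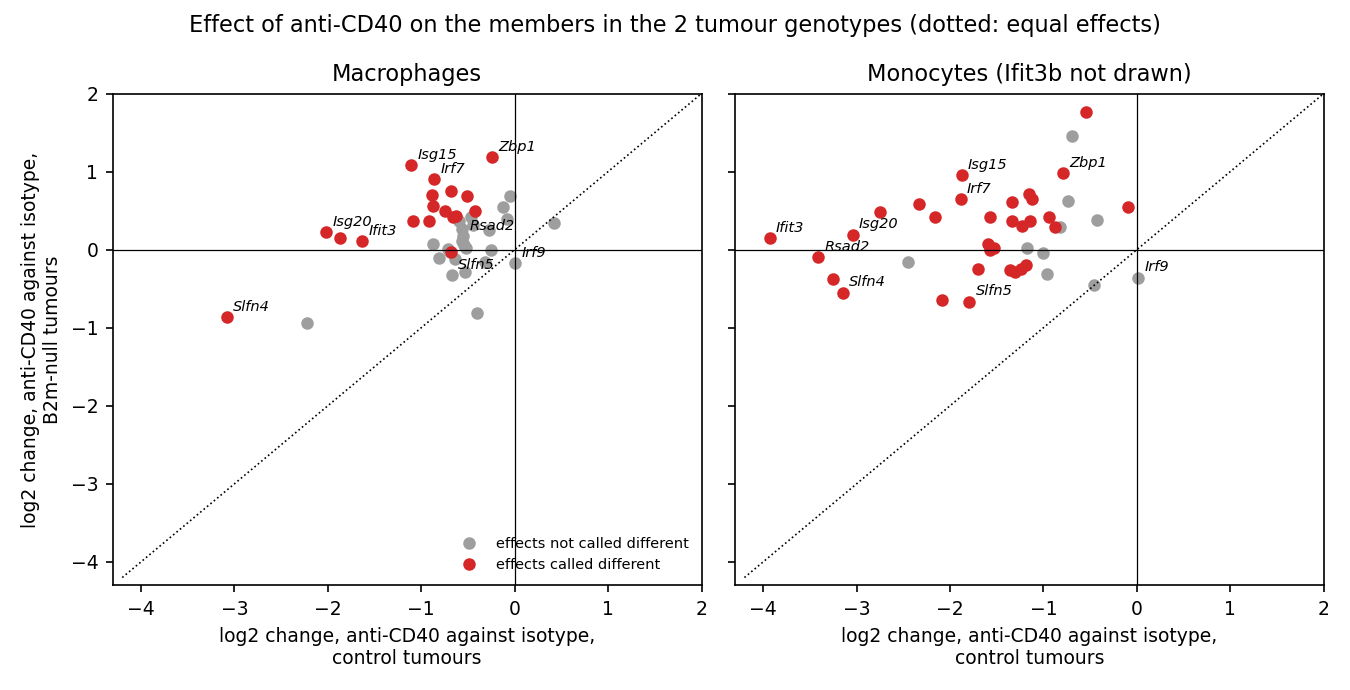
Log2 change under anti-CD40 in control tumours (horizontal) and in B2m-null tumours (vertical) for each member, in macrophages and monocytes. Most members lie left of 0; the medians in monocytes are -1.33 and 0.29, and in macrophages -0.63 and 0.25. Ifit3b in monocytes, with 0 counts in control anti-CD40 mice, is not drawn.

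Under the isotype antibody, monocytes of B2m-null tumours had less of the list than those of control tumours. Of 43 members 23 were lower and 0 higher, against 1.84% of all genes tested called and 1.35% called lower, with a median of -0.72 beside 0.01 for all genes. In 23 members the 4 B2m-null mice lay below all 5 control mice, as in 2.68% of all genes tested. Phf11d had a log2 difference of -1.33 ± 0.20, Isg15 of -1.31 ± 0.14 and Ifit3 of -1.26 ± 0.18. Ifit2 had a difference of -1.24 ± 0.14, Phf11b of -1.19 ± 0.18, Oasl1 of -1.15 ± 0.21 and Slfn4 of -1.10 ± 0.16. The count was 7 without control isotype lane 1, 11 without B2m-null isotype pool 2 mouse 2 and 15 without B2m-null isotype lane 1. It was 7 with the lane as the unit and 36 with no filter on low counts. Median depth was 3163 UMIs per cell in B2m-null and 2177 in control isotype monocytes, and its part was not tested.

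Under anti-CD40 the order of the tumours was the opposite. In monocytes 15 members were higher in B2m-null than in control tumours and 0 lower, against 7.09% of all genes tested called, 3.81% higher and 3.28% lower, with a median of 0.84 beside -0.02. In 26 members all B2m-null mice lay above both control mice and in 2 below, as in 11.8% and 22.3% of all genes tested. Ifit3 was higher by 2.82 ± 0.46, Ifit1 by 2.43 ± 0.28 and Rsad2 by 2.41 ± 0.40. Ifit2 was higher by 1.64 ± 0.28, Phf11d by 1.59 ± 0.41, Isg15 by 1.51 ± 0.20, Slfn4 by 1.49 ± 0.35 and Irf7 by 1.47 ± 0.26. The count was 3 without control anti-CD40 mouse 2, 9 without control anti-CD40 lane 2, 7 with the lane as the unit and 9 with stricter gates. Median depth was 3396 UMIs per cell in B2m-null and 1699 in control anti-CD40 monocytes, and its part was not tested.

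Under anti-CD40 fewer members were called in macrophages, the most numerous class, than in monocytes. In control tumours under anti-CD40, 18 members fell and 0 rose, against 21.5% of all genes tested called and 9.91% called lower. The median of the 43 members was -0.63 and that of all genes tested -0.01, and in 28 members both anti-CD40 mice lay below all 5 isotype mice, as in 30.3% of all genes tested. All 4 Schlafens fell, as did 3 of 5 Ifit genes, 3 of 6 Oas-related members and 3 of 7 sensors. The count was 6 and 9 without control anti-CD40 mouse 2 and mouse 1, 7 without control isotype lane 1 and 11 with the lane as the unit. Median depth was 3016 UMIs per cell under anti-CD40 and 4476 under isotype. T cell markers in the macrophages of these groups summed to 38.6 and 65.8 against 11.2 to 25.8 CPM. Without macrophages that held T cell transcripts the count was 17.

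Slfn4 had the largest fall in macrophages of control tumours under anti-CD40. It stood at 47.3, 62.4, 39.9, 26.7 and 50.04 CPM in control isotype mice and at 5.20 and 4.52 CPM in control anti-CD40 mice. B2m-null tumours gave 53.2, 30.8, 38.1 and 20.3 CPM under isotype and 20.7, 15.9, 16.1 and 13.9 CPM under anti-CD40. The control groups did not overlap, and the B2m-null groups overlapped by 1 mouse. Slfn4 fell by 3.08 ± 0.38 (edgeR adjusted p = 9.3e-05) and by 0.86 ± 0.27 (edgeR adjusted p = 0.026).

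Ifit3 stood at 113, 78.8, 91.8, 54.5 and 62.2 CPM in macrophages of control isotype mice and at 28.0 and 19.8 CPM in those of control anti-CD40 mice. Levels in B2m-null tumours were 60.9, 38.6, 49.6 and 30.6 CPM under isotype and 45.2, 36.9, 43.8 and 40.0 CPM under anti-CD40, which overlap. It fell by 1.63 ± 0.29 in control tumours (edgeR adjusted p = 0.0017) and had a change of 0.11 ± 0.23 in B2m-null tumours. Among other members that fell in control tumours, Ifit1bl1 fell by 2.22 ± 0.58, Isg20 by 2.02 ± 0.28, Ifit3b by 1.87 ± 0.29, Slfn1 by 1.09 ± 0.32 and Phf11d by 0.91 ± 0.17. Rsad2 at -0.55 ± 0.36, Ifit1 at -0.46 ± 0.30, Usp18 at -0.67 ± 0.25, Stat2 at -0.54 ± 0.20 and Oasl2 at -0.57 ± 0.22 were not called, nor were Ifi27l2a at -0.53 ± 0.26 and Bst2 at -0.08 ± 0.16.

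Isg15 and Irf7 again moved in opposite directions in the 2 tumours. In macrophages Isg15 stood at 484, 360, 394, 254 and 236 CPM in control isotype mice and at 138 and 153 CPM in control anti-CD40 mice. B2m-null isotype mice had 181, 155, 182 and 83.0 CPM and B2m-null anti-CD40 mice 252, 326, 247 and 272 CPM. Neither pair of antibody groups overlapped. It fell by 1.11 ± 0.31 (edgeR adjusted p = 0.024) and rose by 1.09 ± 0.26 (edgeR adjusted p = 0.0059). Irf7 ranged from 134 to 199 CPM in control isotype mice and stood at 92.3 and 73.8 CPM in control anti-CD40 mice, a fall of 0.86 ± 0.23. In B2m-null tumours Irf7 rose by 0.90 ± 0.19, from 65.1 to 131 CPM under isotype to 130.4 to 184 CPM under anti-CD40, and the highest isotype mouse was level with the lowest anti-CD40 mouse.

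In B2m-null tumours 9 members rose and 2 fell in macrophages under anti-CD40, against 33.8% of all genes tested called and 16.8% called higher. The share of members that rose was thus close to the background, while the share that fell was below that of all genes. In 3 of 43 members all anti-CD40 mice lay above all isotype mice, as in 6.73% of all genes tested. In 1 of 43 all lay below, as in 26.5%. The median of the members was 0.25 and that of all genes -0.02. Zbp1 rose by 1.18 ± 0.27, Ifi35 by 0.75 ± 0.12, Oasl1 by 0.70 ± 0.18 and Rtp4, a chaperone of membrane receptors, by 0.69 ± 0.19. Bst2 rose by 0.40 ± 0.14 (edgeR adjusted p = 0.037), and Ddx60 fell by 0.81 ± 0.27. Usp18 at 0.41 ± 0.22, Ifit1 at 0.42 ± 0.25, Oasl2 at 0.26 ± 0.19, Rsad2 at 0.17 ± 0.30 and Stat2 at 0.06 ± 0.17 were not called, nor were Slfn5 at -0.33 ± 0.17 and Ifi27l2a at -0.28 ± 0.21. Without B2m-null anti-CD40 lane 1 the count of calls was 3, and without B2m-null anti-CD40 pool 1 mouse 2 it was 6.

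The direct test of the difference called 18 members in macrophages, all higher in B2m-null tumours, against 17.6% of all genes tested called, 8.73% higher and 8.83% lower, with a median of 0.83 beside -0.02. It was 2.24 ± 0.35 for Isg20, 2.22 ± 0.45 for Slfn4, 2.19 ± 0.41 for Isg15, 2.02 ± 0.38 for Ifit3b, 1.76 ± 0.30 for Irf7 and 1.74 ± 0.37 for Ifit3. The count was 8 and 11 without control anti-CD40 mouse 2 and mouse 1, 11 without control isotype lane 1 and 4 with the lane as the unit.

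Between the tumours, 14 members were lower and 0 higher in B2m-null than in control macrophages under isotype, against 6.77% of all genes tested called and 3.66% called lower, with a median of -0.54 beside 0.01. Isg15 differed by -1.26 ± 0.25, Zbp1 by -0.98 ± 0.26, Oasl1 by -0.94 ± 0.17, Ifit3b by -0.90 ± 0.23, Ifit3 by -0.90 ± 0.22 and Irf7 by -0.84 ± 0.18. This count was 0 without control isotype lane 1 and 2 without B2m-null isotype lane 1. It was 6 when B2m-null isotype pool 1 mouse 3, control isotype pool 1 mouse 1 or control isotype pool 1 mouse 3 was left out, and 8 without B2m-null isotype lane 2 or its mouse 2. It was 9 without control isotype pool 1 mouse 2, without B2m-null anti-CD40 lane 2, or with the lane as the unit. Under anti-CD40, 7 members were higher and 0 lower, against 12.5% called, 5.82% higher and 6.72% lower, with Slfn4 higher by 1.80 ± 0.38, Isg20 by 1.37 ± 0.29 and Irf7 by 0.92 ± 0.24. That count was 0 without either control anti-CD40 mouse, 4 without B2m-null anti-CD40 lane 1 and 1 with the lane as the unit. It was 11 without control isotype lane 1, its mouse 1 or B2m-null isotype lane 2, 12 without B2m-null isotype pool 2 mouse 2 and 13 by DESeq2. Median depth in macrophages was 6100.5 UMIs per cell in B2m-null and 4476 in control tumours under isotype and 5541.5 and 3016 under anti-CD40, and its part was not tested.

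**Figure D3:**
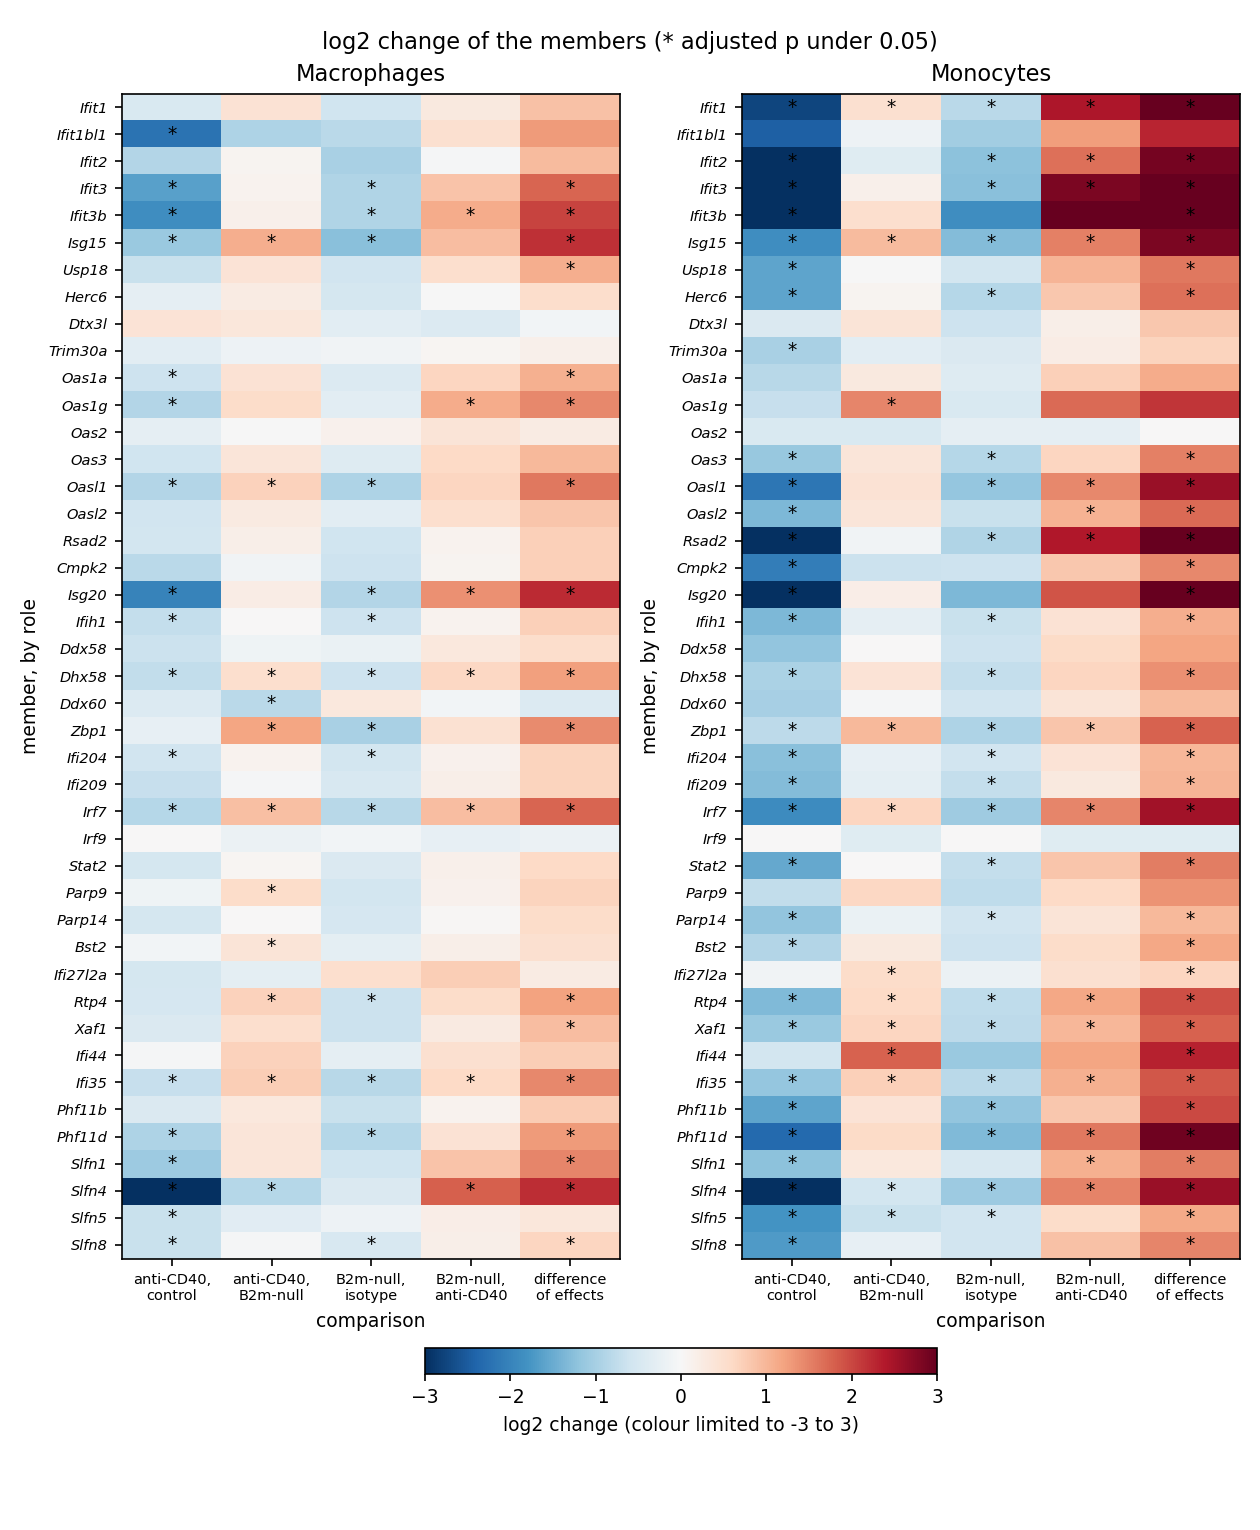
Log2 change of each of the 43 members in 5 comparisons, in macrophages and monocytes, with members past an adjusted p of 0.05 starred. The columns for anti-CD40 in control tumours hold 18 and 32 starred members, all lower.

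Conventional dendritic cells gave fewer calls, from 32 to 529 cells per mouse, with 41 of the 43 members tested. The class pools cDC1, cDC2 and mature dendritic cells, whose mix differed by group. These numbered 611, 475 and 630 cells in control isotype, 87, 46 and 45 in control anti-CD40, 290, 430 and 411 in B2m-null isotype and 59, 48 and 66 in B2m-null anti-CD40 mice, and the part of the mix in the results was not tested. Under anti-CD40 in control tumours 3 fell and 0 rose, against 2.35% of all genes tested called. These were Ifi209 at -1.48, Slfn5 at -1.31 and Ifi35 at -0.98 on the log2 scale. In 24 of the 41 members both control anti-CD40 mice lay below all control isotype mice, as in 18.1% of all genes tested. In B2m-null tumours Zbp1 rose by 1.08 and Phf11b by 0.80, which is 2 of 41 members against 5.25% of all genes called, 2.96% higher and 2.3% lower, so members were not called more often than other genes. Between tumours under isotype 6 members were lower in B2m-null tumours, against 1.14% called and 0.587% called lower, with Ifit3 at -1.60 and Slfn1 at -1.04. Under anti-CD40 edgeR called 0 members, with 3 at an unadjusted p under 0.05 and 1 called by DESeq2, against 0.477% of all genes. The antibody effects differed between tumours for 3 members, Ifi35, Zbp1 and Phf11b, against 2.47% of all genes called, 1.28% higher and 1.19% lower. Leaving out either control anti-CD40 mouse brought the counts in control tumours and for the difference to 0. The isotype count was 0 without control isotype lane 1, 2 without B2m-null isotype lane 2 and 3 without that lane's mouse 1. The count in B2m-null tumours was 1 without B2m-null anti-CD40 pool 1 mouse 1 or pool 2 mouse 2.

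In CD8 T cells members were called in both directions. Of 40 members tested, 6 rose and 6 fell under anti-CD40 in control tumours, against 36.4% of all genes tested called, so the members were not called more often than other genes. Slfn4 fell by 3.50 ± 0.69, Oasl2 by 1.51, Ifi204 by 1.51, Slfn5 by 1.48 ± 0.36, Isg15 by 1.15 ± 0.33 and Rsad2 by 1.07. Ifit1bl1 rose by 1.62, Irf9 by 1.01 ± 0.18 (edgeR adjusted p = 0.0002), Dtx3l by 0.90, Ifi209 by 0.85, Oas3 by 0.68 and Phf11b by 0.50. Slfn4 is sparse here, at 4.12 to 26.3 CPM in control isotype and 0 and 1.24 CPM in control anti-CD40 mice. Ifit3 at -0.69, Usp18 at -0.56, Bst2 at -0.38, Irf7 at 0.07, Ifit1 at 0.18, Stat2 at 0.26 and Ifi27l2a at 0.37 were not called. Myeloid markers summed to 791 to 1972 CPM in CD8 T cells of control isotype mice and to 580.1 and 643 CPM in those of control anti-CD40 mice, and median depth was 4115 and 1782 UMIs per cell. Their part in the falls was not tested. The count was 2 without control anti-CD40 mouse 2 and 5 without control isotype lane 1.

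Slfn5 fell in CD8 T cells of both tumours. It stood at 34.2, 73.2, 38.0, 20.2 and 66.8 CPM in control isotype mice and at 16.1 and 14.9 CPM in control anti-CD40 mice. The 3 B2m-null isotype mice with enough CD8 T cells had 51.7, 42.0 and 73.9 CPM, from 3, 86 and 16 UMIs. These isotype mice held 23 to 364 CD8 T cells. The B2m-null anti-CD40 mice had 18.1, 9.65, 15.6 and 9.95 CPM, from 9, 23, 92 and 31 UMIs. Neither pair of groups overlapped. In B2m-null tumours it fell by 1.81 ± 0.43 (edgeR adjusted p = 0.027), and its change did not pass the test of a difference between the tumours. In these B2m-null CD8 T cells markers of cDC2 stood at 68.9 to 94.3 CPM under isotype and at 12.1 to 21.5 CPM under anti-CD40, those of mature dendritic cells at 233 to 499 and 122 to 167 CPM and those of myeloid cells in general at 467 to 861 and 597 to 987 CPM. Their part in the result was not tested.

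In CD8 T cells Zbp1 rose in B2m-null tumours. It stood at 34.4, 69.8 and 78.6 CPM under isotype, from 2, 143 and 17 UMIs. Under anti-CD40 it stood at 171, 143, 160 and 165 CPM, without overlap. The increase was 1.35 ± 0.22 (edgeR adjusted p = 0.0015). In the same comparison Irf7 rose by 1.23 ± 0.31 and Ifi35 by 0.92, and 4 members were called of 40 against 4.12% of all genes tested, with 2.6% called higher. Isg15 at 0.82, Ifi27l2a at 0.94, Usp18 at 0.89, Rsad2 at 0.57, Bst2 at 0.50, Ifit1 at 0.49, Ifit3 at 0.23, Stat2 at 0.10, Oasl2 at -0.49 and Slfn4 at -0.67 were not called. The antibody effects differed between tumours for 4 members, Isg15 by 1.97, Isg20 by 1.60, Ifi35 by 1.00 and Zbp1 by 0.96, a share of the 40 near the 6.56% of all genes tested called. Under anti-CD40 the tumours differed for Isg20, Zbp1 and Ifi35, which were higher in B2m-null tumours by 1.20, 0.67 and 0.62, and these 3 of 40 are at the share of all genes called, 7.31%. Under isotype edgeR called 0 members against 0.321% of all genes, with 7 at an unadjusted p under 0.05 and 0 called by DESeq2. Each of these counts depended on single mice. In B2m-null tumours it was 0 without B2m-null isotype lane 2, 1 without that lane's mouse 1 or without B2m-null anti-CD40 lane 2, 2 without that lane's mouse 2 and 7 without B2m-null anti-CD40 lane 1. For the difference between effects and for the tumours under anti-CD40 it was 0 without either control anti-CD40 mouse.

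**Figure D4:**
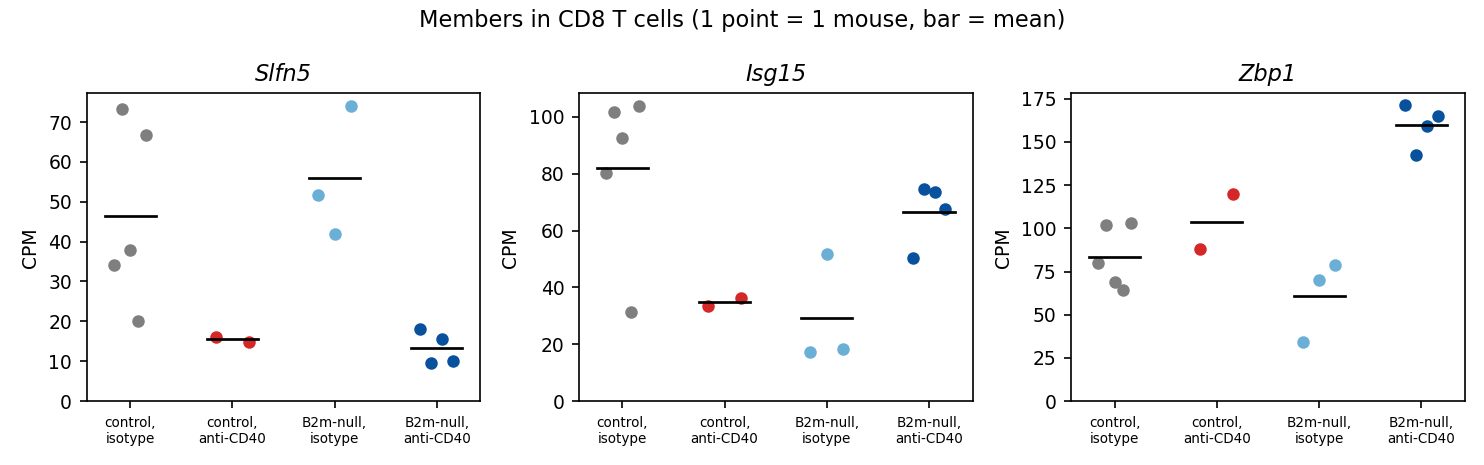
Level of Slfn5, Isg15 and Zbp1 in CD8 T cells of each mouse (CPM), by group, with the group mean. Slfn5 is lower under anti-CD40 in both tumours, at 9.65 to 18.1 CPM against 20.2 to 73.9 CPM under isotype, whereas Zbp1 is highest in B2m-null anti-CD40 mice.

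CD4 T and NK cells were few. Of 30 members tested in CD4 T cells, Slfn8 fell by 1.74 (edgeR adjusted p = 0.044) and Trim30a by 1.15 (edgeR adjusted p = 0.047) under anti-CD40 in control tumours, against 3.39% of all genes tested called. Slfn8 stood at 115, 65.6, 88.1 and 115 CPM in the 4 control isotype mice with enough cells and at 25.8 and 28.4 CPM in control anti-CD40 mice. In the same CD4 T cells markers of regulatory T cells stood at 922 to 1500 CPM under isotype and at 448 to 485 CPM under anti-CD40, those of mature dendritic cells at 279 to 334 and 165 to 192 CPM and those of myeloid cells in general at 793 to 4013 and 685 to 725 CPM. Their part in the result was not tested. Of 18 members tested in NK cells, Isg15 fell by 1.69 (edgeR adjusted p = 0.021) in the same comparison. This 1 call of 18 is near the share of all genes tested called, 4.98%. In 7 of the 18, however, both anti-CD40 mice lay below all isotype mice, as in 13.1% of all genes tested. In 0 they lay above, as in 8.95%. The summed list ran from 13.6 to 24.7 UMIs per 10000 in NK cells under isotype and stood at 9.82 and 11.3 under anti-CD40. Isg15 stood at 59.2, 105, 106, 31.4 and 48.0 CPM under isotype, from 17, 27, 12, 7 and 16 UMIs. Under anti-CD40 it stood at 8.87 and 29.0 CPM, from 3 and 10 UMIs. DESeq2 called 0 members in these comparisons in both classes. The CD4 T count was 0 without either control anti-CD40 mouse, and the NK count was 0 without control anti-CD40 mouse 1 or control isotype pool 1 mouse 2. In NK cells Dtx3l was lower in B2m-null than in control tumours under anti-CD40, with a log2 difference of -1.29 (edgeR adjusted p = 0.044, against 3.41% called). In the other NK comparisons edgeR and DESeq2 called 0 members, with 2 at an unadjusted p under 0.05 for anti-CD40 in B2m-null tumours, 8 for the tumours under isotype and 5 for the difference, against 5%, 0.141% and 1.31% of all genes called by edgeR. In CD4 T cells both tools called 0 between tumours under anti-CD40, with 1 at an unadjusted p under 0.05, against 1% of all genes.

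The type I and type III interferons themselves were close to absent from the counts, with 1 exception. Over 20 type I and type III interferon genes, 2669 UMIs were found in 90100 cells, and 2577 of them were from Ifnb1, the interferon beta gene. Ifnb1 had 1192 UMIs in 577 cells of control tumours under isotype, 329 in 169 cells under anti-CD40, 445 in 256 cells of B2m-null tumours under isotype and 611 in 224 cells under anti-CD40. In macrophages its level ran from 9.13 to 20.1 CPM in control isotype mice, stood at 3.22 and 7.01 CPM in control anti-CD40 mice, and ran from 2.73 to 5.74 and from 4.12 to 12.4 CPM in the B2m-null groups under isotype and anti-CD40. In monocytes it ran from 16.2 to 45.7 CPM in control isotype mice and stood at 2.72 and 8.11 CPM in control anti-CD40 mice. It ran there from 5.24 to 16.9 CPM in B2m-null tumours under isotype and from 0 to 22.3 CPM under anti-CD40. Between tumours under isotype, Ifnb1 was lower in B2m-null macrophages, with a difference of -1.82 ± 0.41 (edgeR adjusted p = 0.022). Its changes under anti-CD40, -1.15 ± 0.46 in control (edgeR adjusted p = 0.089) and 1.14 ± 0.43 in B2m-null tumours (edgeR adjusted p = 0.056), did not pass, while their difference of 2.29 ± 0.63 did (edgeR adjusted p = 0.025). The alternatives of the closing section cover members only, so Ifnb1 was not tested with a mouse or lane left out.

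A separate list of 31 holds ligand, receptor, sensor and signalling genes of the pathway, the ligand gene Ifnb1 among them. In macrophages of control tumours 4 of the 25 tested fell under anti-CD40 and 1 rose, a share close to the 21.5% of all genes tested that were called. Ifnar1, a chain of the receptor, fell by 0.53 (edgeR adjusted p = 0.0028). In B2m-null tumours 8 rose and 3 fell, against 33.8% of all genes called, with the feedback inhibitor Socs1 at 1.78. In monocytes 1 of 24 rose and 0 fell in control tumours, against 4.79% called, and 7 rose and 1 fell in B2m-null tumours, against 18.9%.

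A list of 29 genes holds Ifng, its receptor genes Ifngr1 and Ifngr2 and genes that answer to interferon gamma. Over all cells Ifng had 5973 and 9656 UMIs in control tumours under isotype and anti-CD40 and 2043 and 9288 in B2m-null tumours. These totals are not scaled to cell numbers, and CD8 T cells numbered 1470, 6108, 622 and 4313 in the same order. In CD8 T cells Ifng ran from 315 to 514 CPM in control isotype mice and stood at 359 and 319 CPM under anti-CD40. In B2m-null tumours it ran there from 103 to 2782 CPM under isotype and from 196 to 693 CPM under anti-CD40. In CD4 T cells of control tumours it ran from 34.6 to 88.1 CPM under isotype and stood at 726 and 989 CPM under anti-CD40. In macrophages 5 of the 28 tested rose under anti-CD40 in control tumours and 0 fell, against 11.6% of all genes tested called higher and 9.91% called lower. In B2m-null tumours 22 rose and 1 fell, against 16.8% called higher and 17.1% lower. Nos2, the inducible nitric oxide synthase, had log2 changes of 2.10 and 3.37. In monocytes 3 of 26 rose and 0 fell in control tumours, against 2.68% called higher, and 16 rose and 1 fell in B2m-null tumours, against 10.3% called higher. Iigp1, an immunity-related GTPase, had log2 changes of 1.57 and 3.18 in monocytes. Cxcl10, a chemokine that answers to both kinds of interferon, had changes of -0.61 (edgeR adjusted p = 0.4) and 1.80 (edgeR adjusted p = 0.0055) in macrophages. Between tumours under isotype the gamma list was lower in B2m-null macrophages for 16 of 28 genes and higher for 0, beside 14 of 43 members lower and 3.66% of all genes tested.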

How the data were processed

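Single-cell RNA was counted in CD45-enriched tumour cells on 8 lanes. The deposited matrices hold raw UMI counts per gene and barcode and hashtag counts, made with Cell Ranger 3.0.0 on mm10, per the submitters' processing notes, with bcl2fastq 2.20.0.422. Barcodes needed 200 genes or more and a mitochondrial share of no more than 10%. Hashtags with at least 20 counts were assigned to mice by a mixture model with a posterior of 0.9, which placed 59.1% to 89.8% of barcodes per lane in all lanes but B2m-null isotype lane 1, and barcodes with 2 hashtags were removed. The labels list 3 hashtags per pool, whereas 2 files hold 3 and the other 6 hold 2. In B2m-null isotype lane 1 a simpler rule placed 21.7% of barcodes, and its first hashtag was dropped. Over all 8 lanes 72.1% were placed. Classes were gated on marker genes with thresholds set after the data were seen. Of 48386 cells gated as monocytes, macrophages or in between, 11.6% lay near the cut between the classes. The 2761 cells in between were counted in neither class.

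Counts were summed per mouse and class (at least 20 cells) and tested with edgeR 4.0.16 in R 4.3.3 (quasi-likelihood test, filterByExpr, TMM scaling, Benjamini-Hochberg adjustment over all genes tested, threshold 0.05). All 4 groups shared 1 fit, and anti-CD40 against isotype, B2m-null against control and the difference of differences were its contrasts. CPM are counts per 1000000 UMIs without TMM scaling. Errors of log2 changes are SE. Whether mice of a pool differed in handling is not given in the sources used here. Intervals, floors and thinning cover counting error only. DESeq2 1.42.0 and the other alternatives are given in the closing section. The edgeR script was tested on simulated data: in the monocyte comparison of antibodies in control tumours it recovered 40% of 2-fold and 69.7% of 4-fold changes.

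The members and lists were chosen with earlier results of these data known. Named are up to 8 called members per class and comparison by size of change, and in macrophages and CD8 T cells 12 anchor members (Isg15, Ifit1, Ifit3, Rsad2, Irf7, Stat2, Usp18, Bst2, Ifi27l2a, Oasl2, Slfn4, Slfn5), whose uncalled values are given for the comparisons of antibodies only. Values per mouse are given for the anchors called most often. Pathway and interferon gamma genes are named by a like rule. Of these, 1 is not reported here. Members named outside these rules were chosen after their values were seen.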

Additional observations from a re-analysis of the deposited data

Results flagged for a closer look

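Of 85 groups of 4 or 5 mice checked for a mouse far from the others, 6 held one, and chance alone marks about 1 in 20. The summed list in CD4 T cells stood at 27.4 UMIs per 10000 in control isotype pool 2 mouse 1 and at 45.1 to 46.9 in the other 3 mice of the group. In monocytes of B2m-null isotype tumours it stood at 54.5 in pool 2 mouse 2 and at 68.0 to 68.4 in the others. Slfn4 in control isotype monocytes stood at 205 CPM in pool 2 mouse 2 and at 148 to 161 CPM in the others. Ifit3b stood at 0 CPM in monocytes of B2m-null isotype pool 1 mouse 2 and at 2.80 to 3.00 CPM in the others. In that mouse the lowest level above 0 of any member was 5.24 CPM, so this 0 is at the counting floor. In CD8 T cells Ifit3b stood at 4.12 CPM in control isotype pool 2 mouse 2, from 5 UMIs. The others there stood at 0.475 to 1.52 CPM, from 1 or 2 UMIs. Rsad2 in macrophages of B2m-null anti-CD40 tumours stood at 202 CPM in pool 2 mouse 2 and at 167 to 172 CPM in the other 3.

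The effect of anti-CD40 differed between B2m-null and control tumours in a direct test (edgeR, adjusted over all genes) for 18 of 43 members in macrophages, 33 of 43 in monocytes, 3 of 41 in conventional dendritic cells and 4 of 40 in CD8 T cells, against 17.6%, 8.75%, 2.47% and 6.56% of all genes tested. The CD8 T share is near that of all genes. Values are the effect in B2m-null minus that in control tumours, on the log2 scale. In macrophages they were 2.24 for Isg20, 2.22 for Slfn4, 2.19 for Isg15, 2.02 for Ifit3b, 1.76 for Irf7, 1.74 for Ifit3, 1.58 for Oasl1, 1.46 for Slfn1 and 1.08 for Usp18. In monocytes they were 4.08 for Ifit3, 3.31 for Rsad2, 3.23 for Isg20, 3.23 for Ifit1, 2.92 for Phf11d, 2.88 for Ifit2 and 2.83 for Isg15. The fitted 6.78 for Ifit3b rests on a group with 0 counts and depends on the prior count, so it is no measure of size. In dendritic cells they were 1.54 for Ifi35, 1.52 for Zbp1 and 1.13 for Phf11b, and in CD8 T cells 1.97 for Isg15, 1.60 for Isg20, 1.00 for Ifi35 and 0.96 for Zbp1. Each of these tests uses the same 2 control anti-CD40 mice.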

How the results depend on the processing

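The control anti-CD40 group holds 2 mice. Leaving out each mouse or lane in turn gave these lowest and highest counts of called members. For anti-CD40 in control tumours they were 16 to 34 in monocytes, 6 to 26 in macrophages, 0 to 5 in dendritic cells, 2 to 17 in CD8 T cells, 0 to 5 in CD4 T cells and 0 to 2 in NK cells. In the same order of classes, and without CD4 T cells where they were not tested, they were 7 to 15, 3 to 13, 1 to 3, 0 to 7 and 0 to 0 for anti-CD40 in B2m-null tumours. Between tumours they were 7 to 30, 0 to 19, 0 to 9, 0 to 1 and 0 to 1 under isotype and 3 to 17, 0 to 12, 0 to 1, 0 to 5, 0 to 1 and 0 to 1 under anti-CD40. For the difference between effects they were 15 to 35, 8 to 22, 0 to 4, 0 to 8 and 0 to 1. In no such setting did the monocyte or macrophage members called for anti-CD40 in control tumours include one that rose. Where a sample was lone in its group its spread was taken from the other groups.

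DESeq2 gave 13 for macrophages between tumours under anti-CD40, 3 and 1 for dendritic cells between tumours under isotype and anti-CD40, 5 for their difference, and 0 for CD4 T and both called NK comparisons. With the lane as the unit, the counts that moved by over 1.5 times were, in macrophages, 11 for anti-CD40 in control tumours, 9 and 1 between tumours under isotype and anti-CD40, and 4 for the difference. In monocytes they were 7 and 7 between tumours and 21 for the difference, in dendritic cells 1 and 1 for anti-CD40 in control and B2m-null tumours, 1 between tumours under isotype and 0 for the difference. In CD8 T cells they were 2 for anti-CD40 in B2m-null tumours and 0 between tumours under anti-CD40 and for the difference, and they were 0 in CD4 T cells for anti-CD40 in control tumours and 0 in NK cells between tumours under anti-CD40. With no filter on low counts they were 36 for monocytes between tumours under isotype, and 11, 4, 14, 1 and 5 in dendritic cells over the 5 comparisons in the order of the ranges above. In CD8 T cells they were 9 for anti-CD40 in B2m-null tumours, 3 and 5 between tumours under isotype and anti-CD40 and 10 for the difference, and in NK cells 3 for anti-CD40 in control tumours. Stricter gates gave 9 in monocytes between tumours under anti-CD40, 0 and 1 in dendritic cells under anti-CD40 in control and B2m-null tumours, 0 for the difference in CD8 T cells, 1 in CD4 T cells and 0 in NK cells. A stricter cell filter gave 0 in both called NK comparisons, RLE scaling gave 2 in NK cells for anti-CD40 in control tumours, and at least 50 cells per mouse gave 1 in CD4 T cells between tumours and 1 for the difference in CD8 T cells. The cause of these moves was not tested, except that no filter tests more genes and the lane as the unit has fewer samples.

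The summed list without its 3 most abundant members was 34.0, 20.2, 23.6 and 25.3 per 10000 in macrophages, 65.0, 24.6, 39.9 and 39.5 in monocytes and 12.2, 12.4, 11.1 and 12.4 in CD8 T cells, in the group order of the text. Averaged over cells it was 74.4 in B2m-null anti-CD40 monocytes, and 20.7 and 24.8 in B2m-null CD8 T cells under isotype and anti-CD40, which thinning to 1000 UMIs gave as 20.1 and 24.5. In control CD8 T cells it averaged 23.9 over cells under isotype and 22.3 under anti-CD40, and 23.1 and 21.8 thinned, beside 19.3 and 20.4 in the text.

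The replicate numbers are shared by lanes of different groups and name no shared animal or batch. The deviations of same-numbered pools correlated at 0.181 to 0.235 in macrophages and at -0.0284 to 0.204 in the other classes (r across genes), and only 2 numbers exist. With the replicate number as a block 7 members were called in CD8 T cells for anti-CD40 in B2m-null tumours beside 4 without it, the only count that moved by over 1.5 times. It gave 12 beside 11 in macrophages for the same comparison, and 16 and 25 in macrophages and monocytes between tumours under isotype beside 14 and 23.

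For single named values, 20 settings that leave out a mouse or lane turned the sign of a value that had not passed the test. The lowest and highest values over all mice and lanes left out follow. In macrophages they were -0.24 to 0.18 for Bst2 in control tumours, and in B2m-null tumours -0.045 to 0.26 for Ifit3, -0.038 to 0.39 for Rsad2 and -0.077 to 0.25 for Stat2. In CD8 T cells of control tumours they were -0.065 to 0.49 for Ifit1, -0.057 to 0.21 for Irf7 and -0.070 to 0.50 for Stat2. For B2m-null tumours in the same class they were -0.68 to 8.64 for Ifit3, -0.69 to 0.72 for Rsad2, -0.12 to 9.08 for Stat2, -0.80 to 7.12 for Oasl2 and -0.88 to 6.12 for Slfn4. Highest values above 6 came from leaving out B2m-null isotype lane 2, which leaves 1 isotype mouse, and are no measure of size. Of the remaining leave-out values 2962 kept direction and side of the threshold, 436 lost the call and 21 gained it; under other settings 1061 kept both, 111 lost the call and 11 gained it. The filter on low counts left 18 of 43 members to be tested in NK cells and 30 in CD4 T cells, and the part of depth in this was not tested.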

Other observations

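In neutrophils, which were not tested, the summed list stood at 65.3 and 76.5 UMIs per 10000 in the 2 control isotype mice with at least 20 such cells and at 40.8 and 42.3 in the 2 control anti-CD40 mice. It stood at 71.5 and 41.8 in 2 B2m-null isotype mice and at 103.2, 103.4 and 76.7 in 3 B2m-null anti-CD40 mice. Rsad2, Slfn4 and Ifi27l2a averaged 1060, 863 and 766 CPM in the 2 control isotype mice and 662, 585 and 1590 CPM in the 3 B2m-null anti-CD40 mice. In cDC2 the list stood at 50.7 to 73.4 in the 5 control isotype mice, at 25.2 to 58.6 in the 4 B2m-null isotype mice and at 35.4 and 35.3 in the single control and B2m-null anti-CD40 mice with enough cells.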
